A study of Mus musculus with 39 samples.

Results

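The 9 genes described here are genes of B cells and of the plasma cells that B cells become: Ms4a1, Cd79a, Cd79b, Cd22, Cr2, Blk, Pou2af1, Prdm1 and Irf4. They were chosen by name out of the 29411 gene names on the array, and each was read by its brightest probe, the one with the highest mean signal over all arrays. The tissue was epididymal adipose, the fat pad beside the testis, of C57BL/6J mice, and its RNA was read on 39 Agilent arrays of 1 colour each. Mice were put on their diets after weaning, at 3 to 4 weeks of age. LFC was the control diet with 10% of calories from fat (11 arrays, at days 1, 6, 10 and 14 and weeks 0, 3, 6, 9, 12, 15 and 18). HFC was a diet with 60% of calories from fat and added sucrose (10 arrays, from day 6 on). HF5, HF20 and HF75 were HFC mice that also received KAL-1, a plant-derived (ethno-botanical) aqueous preparation, at 5, 20 and 75 µg (6 arrays each, at weeks 3 to 18). The study counts its weeks from day 14. Each diet had 1 array at a time point. Whether it held a pool of animals is not given in the labels, and some titles carry an R that the labels do not define. The time points of a diet therefore served as its replicates, and p-values measure the spread between these arrays, which may be technical.

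B cells recognise antigen through a surface immunoglobulin whose signal is passed into the cell by the paired chains Cd79a and Cd79b. Activated B cells may become plasma cells, which switch off much of the B cell programme and secrete immunoglobulin in large amounts. Fat pads hold B cells scattered in the tissue and in small lymphoid clusters. A lymph node, where one adjoins a pad, holds many more. In RNA of whole tissue, fewer cells of a type and less RNA per cell cannot be told apart.

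Of the 9 genes, 6 have an entry in the table of RefSeq promoters (GRCm38.p6, 250 bases before to 50 bases after the start of the gene). The promoters of 3 genes are shown up to the base before the start, 5′ to 3′ on the strand of the gene, because they hold one of 5 motifs searched on both strands. Capitals mark the motif.
Pou2af1, chr9:51213440-51213689, plus strand: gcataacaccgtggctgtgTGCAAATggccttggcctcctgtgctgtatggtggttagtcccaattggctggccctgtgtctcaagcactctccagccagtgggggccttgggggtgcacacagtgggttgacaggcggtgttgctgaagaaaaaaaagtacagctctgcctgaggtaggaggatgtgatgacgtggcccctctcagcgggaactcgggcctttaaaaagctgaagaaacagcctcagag
Prdm1, chr10:44458749-44458998, minus strand: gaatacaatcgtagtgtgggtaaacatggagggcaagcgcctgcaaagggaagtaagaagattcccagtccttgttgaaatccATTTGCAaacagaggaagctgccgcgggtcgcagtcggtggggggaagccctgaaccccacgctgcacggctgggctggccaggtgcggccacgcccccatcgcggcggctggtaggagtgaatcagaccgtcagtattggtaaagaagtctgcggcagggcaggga
Cd22, chr7:30879029-30879278, minus strand: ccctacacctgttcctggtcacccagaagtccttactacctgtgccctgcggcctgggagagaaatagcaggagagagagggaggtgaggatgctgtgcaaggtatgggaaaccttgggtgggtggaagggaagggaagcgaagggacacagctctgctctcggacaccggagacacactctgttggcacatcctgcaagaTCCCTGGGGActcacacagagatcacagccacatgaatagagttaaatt
TGCAAAT is the core of the octamer, the sequence bound by the factors that the protein of Pou2af1 assists, and ATTTGCA is the same motif on the other strand. It began 231 bases before the start of Pou2af1 and 167 before that of Prdm1, and 4.02% of the 32851 promoters of the table hold it on either strand. The palindromic motif of early B cell factor (EBF) lay 49 bases before the start of Cd22 and in 0.904% of all promoters. None of the 6 promoters held ATGCAAAT, which contains TGCAAAT (1.74% of all promoters), the composite motif of Ets factors and Irf4 (2.72%) or the motif of Blimp-1 (360 of the 32851 promoters). These matches are descriptions of letters and say nothing of binding.

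Values are normalised log2 signals, the log2 of a spot's processed intensity less the 75th percentile of all such values on its array, so that 0 is that percentile and each step of 1 is a factor of 2 in signal. The scanner software also marks each spot as well above background or not, and a value without that mark is only an upper bound. On 37 arrays 53.7% to 79.6% of spots were well above background and 21 to 387 spots were marked as outliers. The LFC week 3 array had 97.1% and 16431 outlier spots, and the HFC week 12 array 94.5% and 10531. Outlier spots were left out, which removed the spots of 6 of the 9 genes on LFC week 3, those of 4 on HFC week 12 and none elsewhere. Adipoq, the adipocyte hormone adiponectin, lay between 2.79 and 6.81 on the other 37 arrays. Scan date ran with time point, so comparisons of diets lie mostly within a date and comparisons of early with late time points do not.

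Detection split the genes. Ms4a1, Cd79b, Pou2af1 and Prdm1 were well above background on 39 of 39 arrays, Cd22 on 38 and Irf4 on 37. Cd79a was well above background on 26 arrays, Cr2 on 17 and Blk on 10, so low values of these 3 genes have no order. These counts include outlier spots that were left out, and on the 37 other arrays they were 24, 15 and 8. Cr2 was above background on both arrays that stand apart, where it read -0.85 (LFC week 3) and -2.57 (HFC week 12) against -7.96 to -3.15 on the other 37.

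**Figure D1:**
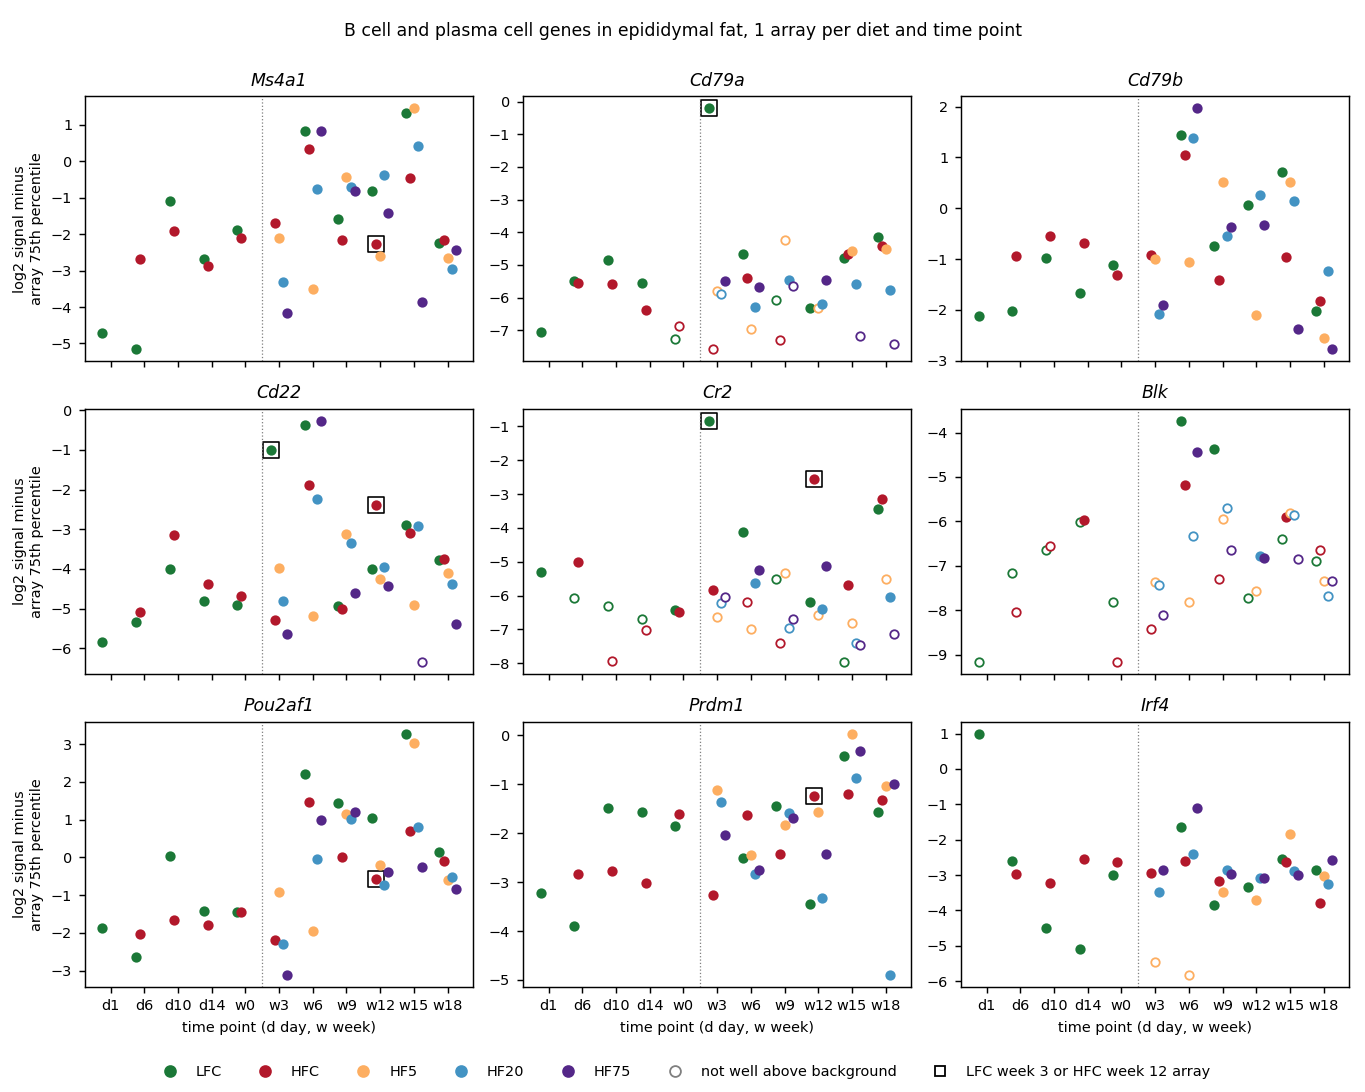
Normalised log2 signal of the 9 genes on each of the 39 arrays, by time point on the horizontal axis (d day, w week) and by diet in colour, with 1 point per array and open points where the spot was not well above background. Squares mark the LFC week 3 and HFC week 12 arrays. Pou2af1 lay at or below 0.04 on all 9 arrays of days 1 to 14 and week 0 and reached 3.26 later, while Prdm1 spread from -4.89 to 0.02 with no such step.

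Pou2af1 is the B cell coactivator that joins octamer-bound factors at immunoglobulin genes, and it is kept on in plasma cells. On LFC it read -1.87 at day 1, -2.64 at day 6, 0.04 at day 10, -1.43 at day 14 and -1.43 at week 0. Later LFC arrays read 2.20 at week 6, 1.44 at week 9, 1.03 at week 12, 3.26 at week 15 and 0.15 at week 18. The spot of week 3 was an outlier. The late LFC values that were used thus lay above the early ones, narrowly for week 18 (0.15) against day 10 (0.04). The share of all probes that separate in this way was not taken, so this is a description. On HFC the early arrays read -2.02, -1.65, -1.80 and -1.44 at days 6, 10 and 14 and week 0, and the late ones -2.18, 1.47, 0.02, -0.56, 0.71 and -0.09 at weeks 3, 6, 9, 12, 15 and 18, so that only week 3 did not lie above the early values. Over the late weeks LFC averaged 1.62 ± 1.18 (SD, n = 5), HF5 0.09 ± 1.76 (SD, n = 6), HFC -0.11 ± 1.24 (SD, n = 6), HF20 -0.29 ± 1.20 (SD, n = 6) and HF75 -0.40 ± 1.55 (SD, n = 6). The 4 high fat groups differed from each other by less than their spread.

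Ms4a1 encodes CD20, a surface protein of B cells that plasma cells lose. On LFC it read -4.70, -5.15, -1.08, -2.69 and -1.88 at days 1, 6, 10 and 14 and week 0, and 0.84, -1.58, -0.81, 1.32 and -2.26 at weeks 6, 9, 12, 15 and 18. The periods overlapped, and week 18 was as low as the early arrays. On HFC the early range was -2.87 to -1.91 and the late range -2.28 to 0.33, with week 6 highest. Among the KAL-1 arrays the signal ran from -4.16 (HF75 week 3) to 1.45 (HF5 week 15).

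Cd79b, one of the signalling chains of the B cell receptor, read -2.12, -2.03, -0.99, -1.66 and -1.12 on the early LFC arrays and 1.45, -0.73, 0.06, 0.71 and -2.01 at weeks 6, 9, 12, 15 and 18. On HFC it stayed between -1.83 and 1.04, and only week 6 was above -0.56. Cd22 is an inhibitory coreceptor that dampens the receptor's signal. Its early LFC values were -5.84 to -4.005, and its late ones -1.01 at week 3, -0.38 at week 6, -4.93 at week 9, -3.997 at week 12, -2.90 at week 15 and -3.77 at week 18. The 2 highest of these were the array that stands apart and week 6. On HFC Cd22 was likewise highest at week 6 (-1.89) and on the week 12 array that stands apart (-2.40). A second Cd22 probe was above background on only 5 of 39 arrays.

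Cr2, complement receptor 2, lowers the threshold of the B cell receptor and is also made by follicular dendritic cells. Its 2 probes correlated with r = 0.124 over 37 arrays, of which only 15 and 9 were above background, so the correlation is mostly one of values without order. At week 6 the dimmer of the 2 probes read -1.50 on LFC, -2.65 on HFC and -1.81 on HF75. The same dimmer probe read -6.15 on HF20 and -6.33 on HF5. On the 23 arrays of the other late weeks (the 2 arrays apart left out) it read -8.67 to -4.29. The brighter probe showed less of this, at -4.12 on LFC, -6.18 on HFC and -5.24 on HF75. Blk, a kinase of the Src family that acts below the receptor, was above background on 0 of 5 early LFC arrays and on 2 of the 5 late ones whose spot was used. Its highest readings were -3.75 (LFC week 6), -4.38 (LFC week 9) and -4.43 (HF75 week 6).

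Prdm1 encodes Blimp-1, the repressor that drives plasma cell differentiation, which T cells and myeloid cells also make. The mean ± SD ranges of its groups all overlapped: -2.40 ± 1.08 (SD, n = 5) on early LFC arrays, -1.88 ± 1.15 (SD, n = 5) on late LFC, -1.85 ± 0.83 (SD, n = 6) on late HFC and -1.33 ± 0.84 (SD, n = 6) on HF5. The lowest value was -4.89 on HF20 week 18 and the highest 0.02 on HF5 week 15. Irf4 is a regulator needed for plasma cells and also active in T cells and macrophages. On LFC it read 0.98 at day 1, -2.59 at day 6, -4.50 at day 10, -5.10 at day 14 and -3.00 at week 0, so that its highest reading of all arrays fell on the first one. The early HFC arrays, which have no day 1, stayed between -3.23 and -2.53. The late LFC values, -3.84 to -1.63, lay inside the early range.

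Cd79a and Cd79b work as a pair. Their signals correlated with r = 0.257 over the 37 arrays, but Cd79a was above background on only 24 of them, and its values on the other 13 have no order. The array also holds probes for 2 predicted genes, Gm2344 and LOC100047815, chosen after their values were seen, which its annotation describes as similar to Cd79a. The first 30 bases of these probes are shown with those of the Cd79a probe, since these probes gave different values.
Cd79a: gtgatagaaaacaacatattaaaacgctcc
Gm2344: cctcctcccagatctgtcatggccacttaa
LOC100047815: cctcctcccagatctgtcatggccacttaa
The last 2 probes were identical in all 60 bases, while the Cd79a probe equalled Gm2344 at 13 of 60 positions with a longest shared run of 6 bases. The Gm2344 probe was above background on all 37 arrays and correlated with Cd79b (r = 0.864) better than with the Cd79a probe (r = 0.414). As a measure of error, the pair of identical probes correlated with r = 0.862 and differed by up to 3.67 log2, on HFC day 10. On LFC the Gm2344 probe read -4.25, -3.46, -2.83, -3.44 and -3.33 on the early arrays and -1.36, 0.01, -1.75, -1.59, 0.21 and -2.42 at weeks 3 to 18. Every late value was above every early one, as a description without the share of all probes. The LOC100047815 probe, of the same sequence, read -5.09, -3.31, -3.03, -3.79 and -3.45 early and -3.66, 0.19, -1.81, -2.03, -0.03 and -3.23 late, so that weeks 3 and 18 lay within the early range. The late minus early difference was 2.31 (SE 0.50, adjusted p 0.0874 by limma) for Gm2344 and 1.97 (SE 0.71, adjusted p 0.682) for LOC100047815. The Cd79a probe read -7.27 to -4.85 early and -6.32 to -0.21 late, and overlapped. Which transcript the Gm2344 probe measures could not be checked here.

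**Figure D2:**
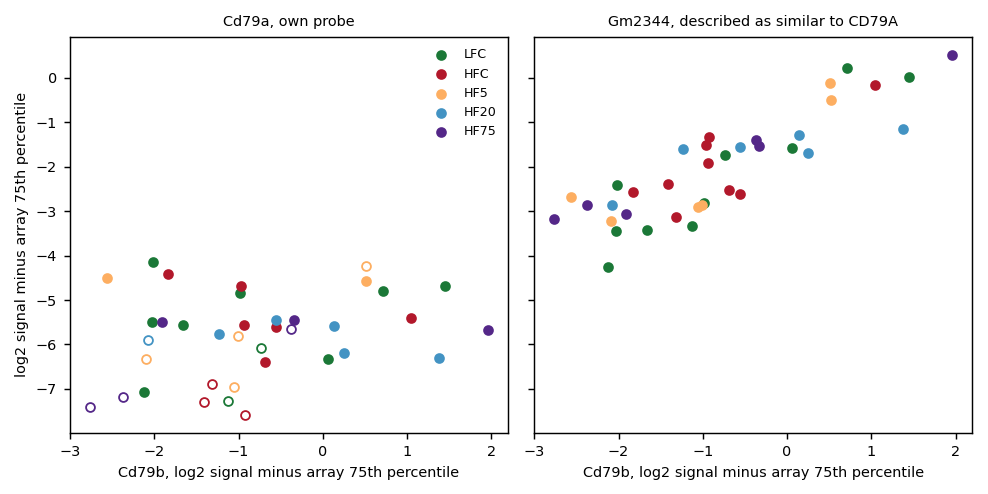
Normalised log2 signal of the Cd79a probe (left) and of the Gm2344 probe (right) on the vertical axis against that of Cd79b on the horizontal axis, 1 point per array, for the 37 arrays other than LFC week 3 and HFC week 12, with open points where the plotted probe was not well above background. The correlation with Cd79b was r = 0.864 for Gm2344 and r = 0.257 for Cd79a, of whose points 13 are open.

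The first comparison asked how these genes changed with time on the control diet, with weeks 3 to 18 set against days 1 to 14 and week 0. None of the genes passed limma's adjusted p of 0.05, where 0.468% of the 30958 probes tested did (81 higher and 64 lower late). All 8 of the genes tested had a higher mean late, with a median difference of 1.58 log2 against -0.09 over all probes, and 4 of the 8 had an unadjusted p under 0.05, against 5.49% of all probes. Pou2af1 differed most, by 3.08 log2 (SE 0.63, adjusted p 0.0737 by limma). The p stayed above the threshold in 19 of 19 alternatives, at 0.0556 to 0.464. Ms4a1 differed by 2.60 (SE 0.91, adjusted p 0.662), Cd22 by 2.15 (SE 0.77, adjusted p 0.662) and Cd79b by 1.48 (SE 0.60, adjusted p 0.848). Cd79a differed by 1.68 and Cr2 by 1.47, and without the LFC week 3 array by 0.84 and 0.71. The regulators Prdm1 and Irf4 differed by 0.52 (SE 0.65) and 0.01 (SE 0.98), less than their errors. The early mean of Irf4 includes the day 1 reading of 0.98. Over 19 alternatives the difference of Irf4 ran from -0.56 to 1.12, with the sign changed in 5. Blk was too dim to be tested. Its mean was -5.83 late and -7.36 early, both with values not above background, so no fold is given.

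Other genes of the B cell line lay the same way on LFC. Counts and medians here include the LFC week 3 array, and summed signals leave it out. Of 27 further B cell genes on the array, 25 were tested and 25 had a higher mean late (median 1.20 log2). The summed signal of the 27 was 2.61 to 3.60 on early and 2.58 to 5.02 on late LFC arrays, lowest at week 18. Of the 25 genes 1 passed the test. This was Tnfrsf13b, the receptor TACI for B cell survival factors, for which limma gave a rise of 3.23 log2 (SE 0.48, adjusted p 0.0141). With the normexp background correction no probe passed in this comparison, this call included. Tnfrsf13c, the receptor for the survival factor BAFF, differed by 2.37 (adjusted p 0.435) and Cd37, a surface protein of B cells, by 1.51 (adjusted p 0.217). Of 14 further genes of antibody-secreting cells 9 had a higher mean late and none passed by brightest probe on all arrays (median 0.28). Igj, the J chain that joins secreted immunoglobulins, differed by 3.18 (SE 0.89, adjusted p 0.309) on its brighter probe, and without the LFC week 3 array by 3.94 (SE 0.57, adjusted p 0.0123), past the threshold. On the other probe it rose by 3.96 (SE 0.64, adjusted p 0.0225), a call likewise lost with normexp. Xbp1 and Sdc1, which many other cells use, differed by -0.48 and -0.90, and without the LFC week 3 array by 0.10 and -0.41. Of 13 T cell genes 13 had a higher mean late (median 1.23) and none passed. The summed T cell signal was -0.23 to 1.098 log2 on early LFC arrays and 1.00 to 4.17 on late ones, with 11 to 13 of the 13 genes above background and no gene absent throughout. Genes of other tissue differed too, with none past the threshold: 0 of 5 mesothelium genes had a higher mean late (median -1.76), and 2 of 7 epididymis genes (median -1.68). The summed mesothelium signal was 2.45 to 3.67 early and 0.10 to 4.201 late, with 3 to 5 of its 5 genes above background, and that of the epididymis genes -1.98 to 6.76 early and -3.55 to 5.97 late, with 1 to 8 of 8. The part of T cells, of other tissue and of scan date in the difference was not tested.

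**Figure D3:**
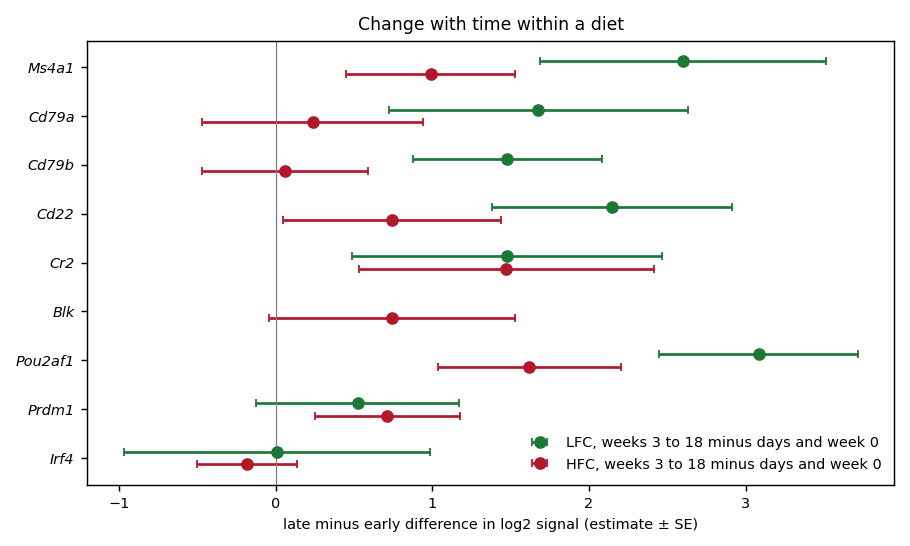
Difference between the late weeks (3 to 18) and the early time points in log2 signal on the horizontal axis, estimate ± SE by limma, for each gene on LFC (green) and on HFC (red). Pou2af1 differed by 3.08 on LFC and 1.62 on HFC. Irf4 lay near 0 on both diets, with an SE of 0.98 on LFC. Blk has no LFC value because it was too dim to be tested.

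On HFC the same contrast gave 0 of 31136 probes past the threshold (0%), with 16.6% of probes at an unadjusted p under 0.05. On HFC 8 of the 9 genes had a higher mean late, with a median of 0.74 log2, and 1 had an unadjusted p under 0.05. Pou2af1 differed by 1.62 (SE 0.58, adjusted p 0.249), Cr2 by 1.47 (SE 0.94, or 0.96 without the week 12 array), Ms4a1 by 0.99 (SE 0.54) and Cd22 by 0.74 (SE 0.70). Cd79b, at 0.06 (SE 0.53), and Irf4, at -0.19 (SE 0.32), differed by less than their errors. The difference of these changes between the diets was tested on the HFC minus LFC values of each time point, where 0 of 29698 probes passed (0%, 5.26% at an unadjusted p under 0.05). Of the 8 genes tested 7 had a smaller change on HFC, with a median of -1.17 log2 against 0.15 over all probes. Genes of other cells did so too: 1 of 13 T cell genes (median -0.81), 0 of 8 macrophage genes (-0.85) and 0 of 8 adipocyte genes (-0.78) had a positive value. Positive values were more common for 8 of 14 antibody-secreting cell genes (0.08), 5 of 7 genes of B cell ligands (1.04) and 4 of 6 epididymis genes (0.60). Cd79b gave -1.22 (SE 0.52, adjusted p 0.833), Ms4a1 -1.15 (SE 0.69, adjusted p 0.835) and Pou2af1 -0.95 (SE 0.60, adjusted p 0.837). A difference between the diets in the change with time was therefore not shown for any of the genes.

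The second comparison asked whether the high fat diet changed these genes. Over all 10 time points that hold both diets 0 of 29698 probes passed (0%, 3.05% at an unadjusted p under 0.05), and over weeks 3 to 18 0 of 32083 did (0%, 2.33%). In those weeks 8 of the 9 genes had a lower mean on HFC, with a median difference of -0.66 log2 against 0.06 over all probes. Pou2af1 was lower on HFC in 5 of 5 late pairs, by -0.25 to -2.55 log2. The fitted difference was -1.33 (SE 0.56, adjusted p 1.00 by limma), and over all time points HFC was lower in 8 of 9 pairs. Ms4a1 was lower in 4 of 5 late pairs (difference -0.66, SE 0.81) and Cd79b in 3 of 4 (-0.55, SE 0.61). Cd79a differed by -1.63 (SE 0.83), but by -0.35 without week 3 and by -0.68 without both arrays that stand apart, so that the LFC week 3 array, at -0.21, carried most of it. Prdm1 differed by 0.05 (SE 0.54), with the sign turned in 8 of 17 alternatives, and Irf4 by -0.12 (SE 0.57). Of the other B cell genes 5 of 25 had a higher mean on HFC (median -0.30). Among 7 genes of B cell survival and homing ligands 5 had a higher mean on HFC (median 0.19), while Cxcl13, the chemokine that draws B cells into follicles, differed by -2.22 (SE 0.67, adjusted p 1.00). Genes of other cells differed as well: 1 of 13 T cell genes (median -0.42), 2 of 8 dendritic and natural killer cell genes (median -0.40), 2 of 7 lymph node genes (median -0.15) and 2 of 8 epididymis genes (median -1.43) had a higher mean on HFC, against 7 of 8 macrophage genes (median 0.20) and 5 of 5 mesothelium genes (median 0.74). Without the 2 arrays that stand apart, the summed T cell signal of the late weeks was 1.00 to 4.17 on LFC and -0.59 to 3.10 on HFC. That of dendritic and natural killer cell genes was -0.49 to 2.08 and -0.11 to 2.16. Their part in the B cell values was not tested. None of these differences passed the test over all probes.

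Each KAL-1 dose was compared with HFC over weeks 3 to 18, and these comparisons share the HFC arrays with each other and with the comparison above. No probe passed for HF5, HF20 or HF75 (0% each of 32083, with 3.44%, 5.05% and 1.54% at an unadjusted p under 0.05) or for the mean of the doses (0%, 1.86%). None of the 9 genes had an unadjusted p under 0.05 in any of the 4. Their median differences were -0.15 on HF5, 0.08 on HF20 and -0.17 on HF75. Pou2af1 differed by 0.20 (SE 0.53), -0.18 (SE 0.53) and -0.29 (SE 0.53) at the 3 doses. Ms4a1 differed by -0.24, 0.12 and -0.57, each with an SE of 0.76. Cr2 had the widest gap, at -1.17, -1.30 and -1.15 (SE 0.78 each), and on HF5 it was above background on 0 of 6 arrays against 4 of 6 on HFC. One of those 4 HFC arrays was the week 12 array that stands apart, and without it the HFC mean was -5.65 ± 1.55 (SD, n = 5) in place of -5.14, against -6.31 ± 0.70 (SD, n = 6) on HF5. With errors of this size, differences of about 1 log2 were not detectable for most of these genes.

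The third question was whether B cell or plasma cell genes follow the immunoglobulin transcripts themselves. A search of names and descriptions gave 86 probes for immunoglobulin heavy and kappa chains, and no lambda chain probe. The 70 of them above background on at least 6 of the 30 late arrays (37 heavy chain and 33 kappa chain) were summarised as their median on each array. This immunoglobulin level averaged -1.91 ± 0.72 on LFC over the late weeks (SD, n = 6), -3.17 ± 1.79 on HF20, -3.96 ± 1.73 on HFC, -4.08 ± 1.47 on HF75 and -4.19 ± 1.76 on HF5 (SD, n = 6 each). On the early arrays it was -5.58 ± 0.69 on LFC (SD, n = 5) and -5.82 ± 0.70 on HFC (SD, n = 4). Each of the 70 probes was well above background on 7 to 39 of the 39 arrays, so low levels rest partly on upper bounds. On HFC week 3 the level was -7.39, where the lowest signal marked well above background was -7.46. On HF5 week 6 these were -6.56 and -6.75. The LFC periods did not overlap on this scaling, a description without the share of all probes. With quantile normalisation the LFC week 3 array, which stands apart, read -5.48, inside the early LFC range of -6.35 to -5.12. With normexp LFC day 14 (-1.08) lay above LFC weeks 6, 9, 12 and 18 (-2.08 to -1.15). As the 70 probes were chosen on late arrays, the level from all 86 was also taken, chosen after seeing the data: it was -7.07 to -5.59 on early and -3.80 to -2.04 on late LFC arrays. HFC lay below LFC in 6 of 6 late pairs and in 9 of 10 in all. The pairs of weeks 3 and 12 each hold an array that stands apart, and the week 3 pair differed most (-5.73). With normexp the week 15 pair turned, at -0.408 on HFC and -0.424 on LFC.

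Within the late weeks, the slope of each gene on the immunoglobulin level was fitted with limma, with diet and time point as terms of the model, so that a slope of 1 means equal log2 changes of the gene and of the immunoglobulin level. Of 32013 probes outside the immunoglobulin list, 0.519% passed (146 positive and 20 negative), and 20.1% had an unadjusted p under 0.05. These probes still include a lambda chain probe, 2010309G21Rik, so the shares are not free of immunoglobulin. All 9 genes had a positive slope, which changed sign in 4 of 18 alternatives for Prdm1 and in 1 of 17 for Cr2, 6 had an unadjusted p under 0.05, and 1 passed. Pou2af1 increased with the immunoglobulin level, with a slope of 0.55 (SE 0.12, adjusted p 0.0315). Past the threshold in 9 of 18 alternatives, it fell short without week 6 (slope 0.40, SE 0.13, adjusted p 0.152), and its adjusted p ranged from 0.00584 to 0.271. The receptor genes had slopes of similar size with larger errors: 0.65 for Ms4a1 (SE 0.20, adjusted p 0.117), 0.64 for Cd22 (SE 0.16, adjusted p 0.0764), 0.63 for Cd79a (SE 0.18, adjusted p 0.104, or 0.40 without the 2 arrays apart) and 0.43 for Cd79b (SE 0.14, adjusted p 0.137). Cr2 had 0.42 (adjusted p 0.250, or 0.17 without the 2 arrays apart), and 0.90 by its other probe (adjusted p 0.0933), and Blk 0.25 (adjusted p 0.337). Irf4 had 0.34 (SE 0.14, adjusted p 0.203) and Prdm1 0.05 (SE 0.16, adjusted p 0.885). Without week 6 the slope of Irf4 was 0.06 and that of Blk 0.05.

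**Figure D4:**
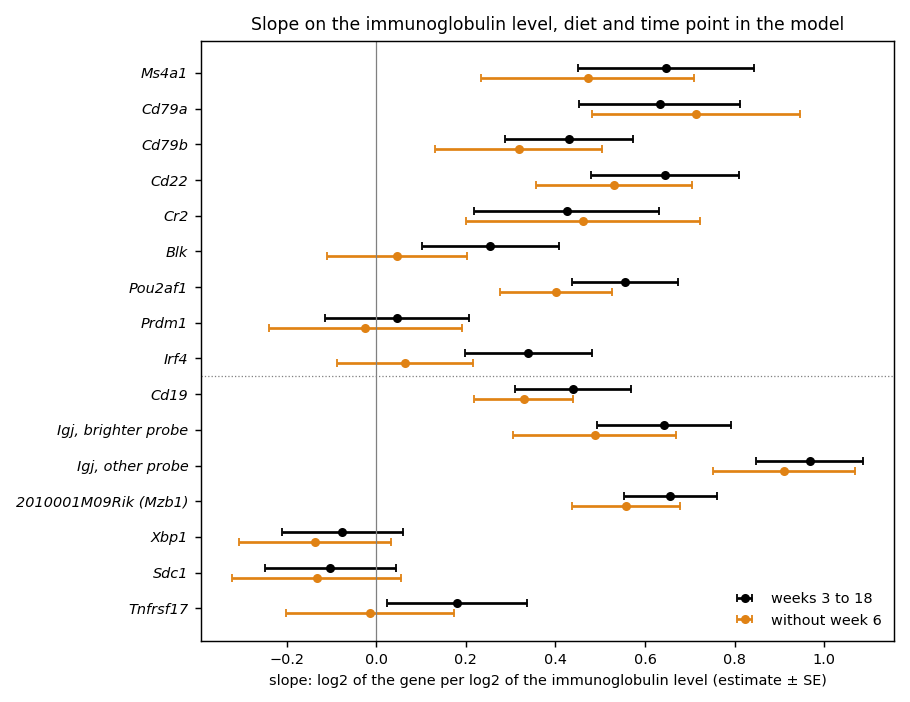
Slope of each gene on the immunoglobulin level over weeks 3 to 18 (log2 of the gene per log2 of the immunoglobulin level), estimate ± SE by limma, with all late weeks in black and without week 6 in orange. The 9 genes stand above the dotted line and further genes below it. Slopes run from 0.05 for Prdm1 to 0.65 for Ms4a1, and the other Igj probe has 0.97.

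Among the further genes, those tied to antibody secretion divided. Mzb1, a chaperone of immunoglobulin assembly that the array lists as 2010001M09Rik, increased with the immunoglobulin level (slope 0.66, SE 0.10, adjusted p 0.00163), and without week 6 its adjusted p was 0.0662. Igj had 0.64 (SE 0.15, adjusted p 0.0516) on the brighter probe, which passed without the 2 arrays apart (0.89, SE 0.10). Its other probe passed at 0.97 (SE 0.12, adjusted p 6.21e-05), and also without week 6 (0.91, adjusted p 0.0170). Derl3, which takes part in the removal of misfolded proteins, passed as well (0.53, adjusted p 0.0459). Xbp1 (-0.08, SE 0.14, or 0.11 without the 2 arrays apart), Sdc1 (-0.10, SE 0.15) and Tnfrsf17, the receptor BCMA of plasma cells (0.18, SE 0.16), did not. By brightest probe 2 of 14 genes of antibody-secreting cells passed, with a median slope of -0.01, and 3 of 25 B cell genes, with a median of 0.48. The 3 were Ly6d (0.71, adjusted p 0.00563), Fcrla (0.62, adjusted p 0.0290) and H2-Oa (0.59, adjusted p 0.0352). Among 13 T cell genes 12 had a positive slope, with a median of 0.47, and 1 passed, Cd5 (0.59, adjusted p 0.0462). Cd5 is made by T cells and by some B cells. The median slope over all probes was 0.02.

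A related measure was the correlation over the late arrays, with gene and immunoglobulin level each centred on the mean of its time point. Labels were permuted within time points (100000 resamples, two-sided). Unlike the slope, this correlation did not take out diet, so differences between diets enter r and its p. In all 9 relations were computed and the p are not adjusted. Pou2af1 gave Pearson's r = 0.730 (permutation p = 0.00039) and Spearman's rho = 0.559 (permutation p = 0.00601) over 29 arrays, and r = 0.532 without the 2 arrays farthest from the median of the immunoglobulin level, HF5 week 6 and HF75 week 15. Cd22 gave r = 0.706 (permutation p = 0.00375) and rho = 0.527 (permutation p = 0.00991), and r = 0.497 without its 2 farthest arrays, LFC week 3 and HF5 week 6. Cd79a gave r = 0.664 (permutation p = 0.00179) and rho = 0.477 (permutation p = 0.0145), and r = 0.508 without those 2. With LFC week 3 and HFC week 12 left out, rho was 0.404 for Cd22 (permutation p = 0.0582) and 0.282 for Cd79a (permutation p = 0.157). With HF5 week 6 and HF75 week 15 left out as well, r was 0.233 for Cd22 and 0.259 for Cd79a, against 0.530 for Pou2af1. The relations of Cd22 and Cd79a thus rest largely on these arrays too. For Cd79b r was 0.636 (permutation p = 0.0107) and rho 0.470 (permutation p = 0.0247), with r = 0.313 without the 2 farthest. For Ms4a1 r was 0.627 (permutation p = 0.0209), rho 0.370 (permutation p = 0.0853) and r without the 2 farthest 0.186, so this relation rests on its 2 farthest arrays. Those of Cr2 (r = 0.470, permutation p = 0.0328; rho = 0.444, permutation p = 0.0229; r = 0.205 without the 2) and Blk (r = 0.468, permutation p = 0.0416; rho = 0.279, permutation p = 0.208; r = 0.159 without the 2) do so too. Irf4 had r = 0.437 (permutation p = 0.107), rho = 0.228 (permutation p = 0.265) and r = 0.03 without the 2. Prdm1 had r = -0.09 (permutation p = 0.573), rho = -0.141 (permutation p = 0.479) and r = -0.10 without the 2. Each gene and the immunoglobulin level were read on the same arrays and scaled by the same percentile. Over the 9 early arrays, here not centred on time point, r was 0.60 for Pou2af1, 0.65 for Prdm1 and -0.64 for Irf4, as a description. It was 0.51 for Ms4a1, 0.51 for Blk, 0.32 for Cd22, 0.21 for Cd79b, 0.11 for Cd79a and -0.44 for Cr2.

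**Figure D5:**
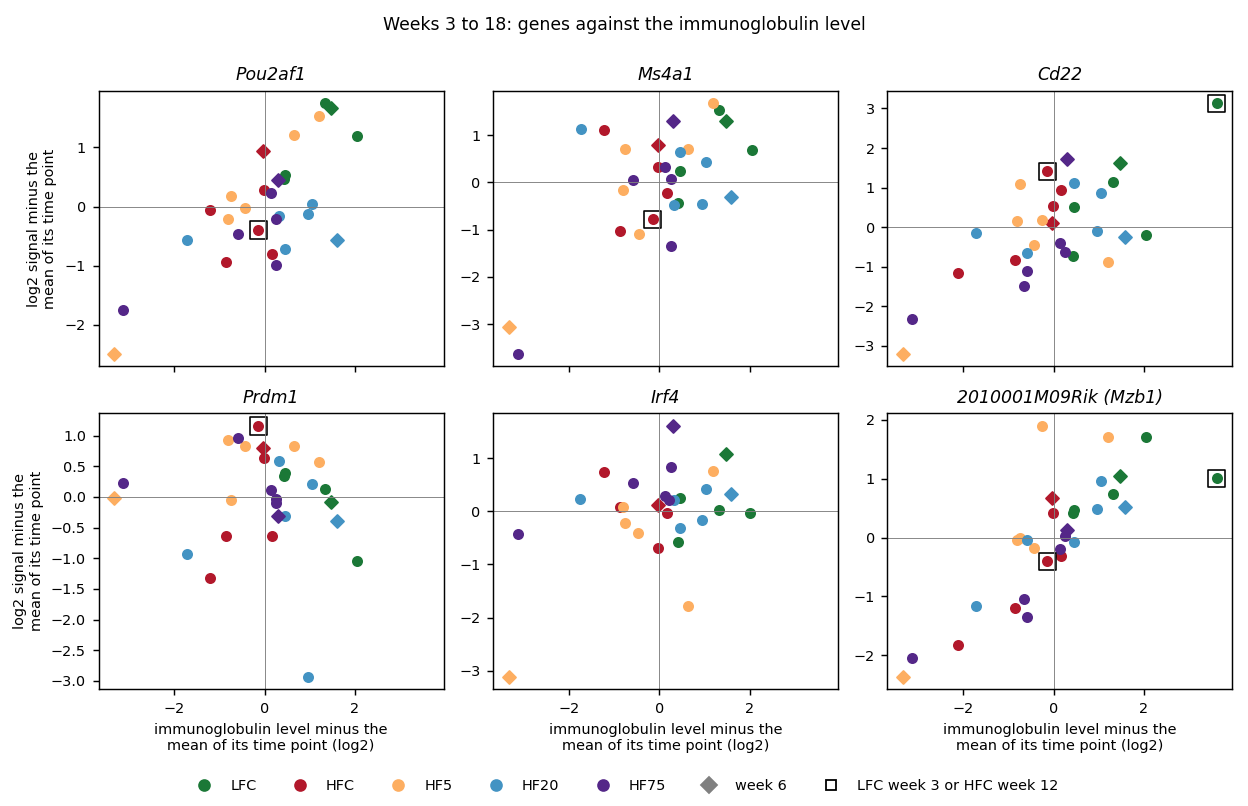
Gene signal (vertical) against the immunoglobulin level (horizontal), both in log2 and centred on the mean of their time point, for weeks 3 to 18, 1 point per array, coloured by diet, with diamonds for week 6 and squares for the 2 arrays that stand apart. Pou2af1 (r = 0.730) and 2010001M09Rik, the Mzb1 gene (r = 0.817), follow the immunoglobulin level, Prdm1 (r = -0.09) does not, and HF5 week 6 lies at the lower left for Pou2af1, Ms4a1, Cd22 and Irf4.

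Week 6 weighs on several of these values, and its arrays did not look alike. Glycam1, a product of lymph node vessels, read 3.01 on LFC, 3.24 on HFC, 0.91 on HF5 and 1.90 on HF75 at week 6. It read -8.83 on HF20 of that week and -9.42 to -5.44 on the 23 arrays of the other late weeks, where it was not above background. Tbx15 and Wt1 were chosen after their values were seen. The same 4 arrays were high in Tbx15, a factor of subcutaneous fat (-0.52, -0.53, -1.46 and -0.97, against -8.97 on HF20 and -8.76 to -4.71 elsewhere), and low in Wt1, a gene of the epididymal pad and its mesothelium (-4.40, -5.38, -7.79 and -7.57, against -1.40 on HF20 and -0.71 to 2.36 elsewhere). The B cell genes were high on LFC, HFC and HF75 of that week and low on HF5. At week 6 Ms4a1 read 0.84 on LFC, 0.33 on HFC and 0.84 on HF75, but -3.51 on HF5 and -0.77 on HF20. Cd22 read -0.38, -1.89 and -0.28 on LFC, HFC and HF75, -5.20 on HF5 and -2.24 on HF20. Cd79b was 1.45, 1.04 and 1.96 on the first 3, -1.05 on HF5 and 1.38 on HF20, and Pou2af1 was 2.20, 1.47 and 0.99, -1.96 and -0.03. HF5 week 6, high in Glycam1 and Tbx15, was thus the lowest of the 5 arrays for each of these 4 genes. The summed signal of 8 lymph node genes was 4.07 on LFC, 3.96 on HFC, 3.14 on HF75, 2.42 on HF20 and 1.89 on HF5. That of the 13 T cell genes was 4.17, 3.10, 2.86, 2.76 and 0.42 in the same order. The part of other tissue in the RNA of these arrays was not tested, and values without week 6 are given above for the slopes.

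Likeness between genes was measured as Pearson's r over the 37 arrays, as a description, with the 3 closest gene names for each gene above background on at least 20 of them. Closest to Ms4a1 were Tnfrsf13c (r = 0.909), Bank1 (r = 0.878) and Fcrla (r = 0.876), all expressed in B cells. Closest to Cd79b were Faim3 (r = 0.873), Gm2344 (r = 0.864) and H2-Oa (r = 0.862), and closest to Cd22 were Spib (r = 0.871), Faim3 (r = 0.843) and H2-Oa (r = 0.834). For Pou2af1 they were 2010309G21Rik (r = 0.928), an immunoglobulin lambda transcript by its annotation, Cacna1s (r = 0.905), a calcium channel of muscle, and EG434026 (r = 0.882), an immunoglobulin kappa segment. Prdm1 had Zfp36l1 (r = 0.895), Adss (r = 0.879) and Zswim6 (r = 0.878), none of them on the lists of B cell or plasma cell genes. The closest to Irf4 was D330038O06Rik (r = 0.692) and to Cd79a Nfatc2 (r = 0.835), a calcium-regulated factor of T cells and other cells. Cr2 and Blk were too dim to be ranked. Within the late weeks, centred on time point, Ms4a1 correlated with Cd79b (r = 0.878) and Pou2af1 (r = 0.801), while Prdm1 had r between -0.324 and 0.222 with the other 8 genes.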

How the data were processed

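Per the file headers, the authors scanned one-colour Agilent mouse arrays with Feature Extraction 10.5.1.1 (the labels name 9.1), which gave the deposited processed intensity of each spot after background correction. A deposited table of the authors' log2 differences from the LFC array of each time point, made in GeneSpring, was not used. Here the log2 of the intensity minus the array's 75th percentile was taken, control and outlier spots were left out and spots of a probe were averaged. The number of arrays limits the precision. The genes, lists and tests were chosen with earlier results of these data known. Text names the 9 genes by brightest probe, fixed genes of the lists and list genes past the threshold. Tests used limma 3.58.1 in R 4.3.3 with Benjamini-Hochberg adjustment over all probes tested (threshold 0.05, two-sided) and time point as a block for diets. Probes had to be well above background on 10 of 20 arrays (HFC against LFC over all time points), 6 of 30 (weeks 3 to 18), 5 of 11 (LFC) or 4 of 10 (HFC). Symbols and promoters came from RefSeq, GRCm38.p6. Scripts were tested on simulated data. Alternatives were another background correction, scaling, filters, outlier spots kept, array weights, blocks, probes, immunoglobulin summaries and arrays or time points left out.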

Additional observations from a re-analysis of the deposited data

Results flagged for a closer look

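Over 63 groups of 4 to 6 arrays, 3 had 1 value far from the others, and chance alone gives about 1 in 20. Cd22 on HF75 week 6 read -0.28, with the nearest of the other 5 arrays at -4.43 (gap 0.684 of the range). Cd79a on LFC week 3, one of the 2 arrays that stand apart, read -0.21, with the nearest at -4.14 (0.643 of the range). Irf4 on HF75 week 6 read -1.10, with the nearest at -2.57 (0.741 of the range). All 3 spots were well above background, and what set these values was not tested.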

How the results depend on the processing

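Of 107 alternatives of the 6 diet comparisons, 106 also gave 0 probes, among them the fits with no replicate block (0) and with slide as a block. For the mean of the doses, leaving out each week gave 0 to 1. Arrays of 1 time point deviated together only in part: over 18774 probes the median correlation of 60 pairs was 0.220, the lowest -0.441, and 42 were over 0.1. For late against early LFC (145 probes), normexp gave 0, quantile normalisation 71 (43 higher, 28 lower), median scaling 79 (55, 24), outlier spots kept 79 (70, 9), detection on every array 79 (33, 46) and array weights 332 (128, 204). Leaving out each time point gave 51 to 212. On HFC, median scaling gave 40, array weights 7900, and time points left out 0 to 775, the highest without week 0. The difference between diets gave 2 without the 2 arrays apart and 2 with array weights. For the slope (166), normexp gave 22627 (16719 positive, 5908 negative), quantile normalisation 64 (61, 3), median scaling 49 (49, 0), outlier spots kept 2049 (1456, 593), detection on every array 31 (23, 8), no arrays apart 91 (91, 0), array weights 90 (88, 2), diet left out of the model 2782 (1226, 1556), and weeks left out 67 to 221. The level from all 86 immunoglobulin probes, chosen after seeing the data, gave 401 (293, 108). The other probe of Cd22 gave r = 0.419 (permutation p = 0.115), Cr2 without the arrays apart r = 0.265 (permutation p = 0.178), and with normexp Prdm1 gave r = 0.241 (permutation p = 0.204) and Irf4 r = 0.702 (permutation p = 0.00032). Over 614 alternatives for single genes, 558 kept direction and side of the threshold, 9 lost it (all the Pou2af1 slope), 17 gained it, 30 changed sign without a call and 0 reversed a call. Pou2af1 and Prdm1 passed late against early on HFC only with array weights (limma adjusted p 0.0126 and 0.0317). The cause of these shifts was not tested.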
